A study of Mus musculus with 9 samples.

Results

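The serpin family of protease inhibitors was followed in organoids of normal mouse small intestine and in tumoroids, which are organoids grown from intestinal tumours. Members were taken by gene symbol (Serpin, a clade letter from a to i, a number and at most 1 further letter), and 63 of the 50600 genes in the count table had such a symbol. Of these, 42 had at least 1 count in at least 1 of the 9 libraries out of 25054 genes with a count. The other 21, among them Serpinf1 (pigment epithelium-derived factor), were at 0 counts in every library. By clade, the 42 were 14 in clade a, 21 in clade b and 7 in clades c and e to i. A deposited TPM of at least 1 (a count per gene length, with every library brought to an equal sum) in at least 1 library was required for testing. This left 23 serpins among 16208 genes tested, while 19 serpins were not tested.

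Poly(A) RNA was sequenced in 3 groups of 3 libraries. Organoids of WT genotype, labelled as C57BL/6, came from the small intestine of mice 2 to 5 months old, and were kept for 24 hr in 50% conditioned medium mixed with concentrated organoid medium. That medium holds EGF, Noggin and R-spondin1. The conditioned medium came from tumoroids (T-cM) or from WT organoids (WT-cM). For all 6 of these libraries the title names one of these media and the treatment field the other, and the titles are followed here in the names T-cM-titled and WT-cM-titled. Every direction between them turns round if the treatment field holds the right label. Tumoroids of the genotype Apc1638N/+, labelled as of mixed strain and untreated, came from intestinal tumours of mice more than 6 months old and were grown without R-spondin1. They stand only for cultures that grew in that medium, and genotype, strain, age, tissue and medium cannot be told apart in any difference between tumoroids and organoids.

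Serpins share a fold with an exposed loop that a protease cuts as if it were a substrate. The cut serpin then changes shape and traps the protease in a covalent complex, so that 1 molecule inhibits 1 protease and is used up. Clade a members such as alpha-1-antitrypsin are mostly secreted plasma proteins made by the liver and clade b members mostly stay inside cells of epithelia and of the blood. Other members, such as Serpine2, act on plasminogen activation and coagulation outside cells. Some members inhibit no protease: Serpina7 carries thyroid hormone, Serpinh1 is a collagen chaperone of the endoplasmic reticulum, and Serpinb5 (maspin) is generally held to be non-inhibitory.

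Most serpin genes lie in clusters that arose by duplication. In the mouse genome build mm10, the clade b genes of chromosome 1 lay at chr1:106861173-107610484 (12 genes in the table, 9 with a count, 6 tested). Those of chromosome 13 lay at chr13:32842092-34002794 (15 genes, 12 with a count, 6 tested). The clade a genes of chromosome 12 lay at chr12:103614786-104414329 (24 genes, 13 with a count, 5 tested).

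The promoters of the 6 tested genes of the chromosome 1 cluster are printed because they include Serpinb11 and Serpinb7, the serpins with the largest fitted changes between tumoroids and organoids. Those of Serpinb6b and Serpinb9b are printed because they had the highest mean TPM in tumoroids of the 4 chromosome 13 genes that changed in the same direction. Each runs 5′ to 3′ from 250 bases before to 50 bases after the start of the gene, from RefSeq on GRCm38.p6. Capitals mark matches on either strand to any of 5 motifs. These were the AP-1 element spelled TGANTCA, the TEAD element spelled GGAATG, the TCF/LEF element spelled CTTTGA, the TATA box spelled TATAAA and the GAS element spelled TTCNNNGAA. No matches of different motifs overlap in these sequences.
Serpinb5 promoter, chr1:106860925-106861224, plus strand: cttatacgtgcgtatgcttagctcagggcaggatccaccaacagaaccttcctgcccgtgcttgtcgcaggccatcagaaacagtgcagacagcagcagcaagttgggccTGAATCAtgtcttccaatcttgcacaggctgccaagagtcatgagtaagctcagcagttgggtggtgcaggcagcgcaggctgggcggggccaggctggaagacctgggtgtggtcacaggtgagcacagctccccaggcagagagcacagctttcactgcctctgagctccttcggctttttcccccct
Serpinb11 promoter, chr1:107362064-107362363, plus strand: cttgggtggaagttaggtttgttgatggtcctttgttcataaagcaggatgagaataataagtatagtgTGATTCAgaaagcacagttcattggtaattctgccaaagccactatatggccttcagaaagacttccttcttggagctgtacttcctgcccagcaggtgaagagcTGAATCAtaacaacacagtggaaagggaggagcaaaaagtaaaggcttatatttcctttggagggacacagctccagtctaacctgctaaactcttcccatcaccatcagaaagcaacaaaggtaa
Serpinb7 promoter, chr1:107422439-107422738, plus strand: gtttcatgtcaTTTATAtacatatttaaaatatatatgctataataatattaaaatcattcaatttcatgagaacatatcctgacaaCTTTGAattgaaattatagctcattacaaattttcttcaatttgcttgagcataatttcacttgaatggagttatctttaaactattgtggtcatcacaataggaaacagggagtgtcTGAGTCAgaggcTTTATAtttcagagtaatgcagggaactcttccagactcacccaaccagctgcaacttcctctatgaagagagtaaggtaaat
Serpinb2 promoter, chr1:107511173-107511472, plus strand: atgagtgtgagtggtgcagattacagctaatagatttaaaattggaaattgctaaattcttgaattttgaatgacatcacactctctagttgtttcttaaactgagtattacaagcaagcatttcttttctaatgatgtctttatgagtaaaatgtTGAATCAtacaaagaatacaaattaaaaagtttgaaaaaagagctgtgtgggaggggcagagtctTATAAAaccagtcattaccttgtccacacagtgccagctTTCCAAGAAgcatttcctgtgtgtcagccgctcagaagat
Serpinb10 promoter, chr1:107528753-107529052, plus strand: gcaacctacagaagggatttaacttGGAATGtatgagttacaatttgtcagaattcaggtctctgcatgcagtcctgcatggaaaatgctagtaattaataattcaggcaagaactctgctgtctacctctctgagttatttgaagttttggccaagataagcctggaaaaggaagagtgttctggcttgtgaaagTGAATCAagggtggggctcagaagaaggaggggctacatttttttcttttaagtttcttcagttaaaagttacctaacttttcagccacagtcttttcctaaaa
Serpinb8 promoter, chr1:107589756-107590055, plus strand: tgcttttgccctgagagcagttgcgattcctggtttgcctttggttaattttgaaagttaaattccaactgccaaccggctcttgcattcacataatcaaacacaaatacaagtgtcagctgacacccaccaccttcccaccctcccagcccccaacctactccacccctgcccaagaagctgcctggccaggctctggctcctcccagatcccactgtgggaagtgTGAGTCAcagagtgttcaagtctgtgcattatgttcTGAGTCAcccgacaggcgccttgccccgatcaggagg
Serpinb6b promoter, chr13:32965011-32965310, plus strand: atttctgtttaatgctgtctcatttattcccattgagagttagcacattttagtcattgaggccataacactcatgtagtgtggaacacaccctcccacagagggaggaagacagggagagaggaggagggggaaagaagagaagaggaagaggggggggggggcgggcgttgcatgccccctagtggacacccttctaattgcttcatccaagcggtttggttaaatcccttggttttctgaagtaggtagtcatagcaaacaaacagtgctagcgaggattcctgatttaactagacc
Serpinb9b promoter, chr13:33027164-33027463, plus strand: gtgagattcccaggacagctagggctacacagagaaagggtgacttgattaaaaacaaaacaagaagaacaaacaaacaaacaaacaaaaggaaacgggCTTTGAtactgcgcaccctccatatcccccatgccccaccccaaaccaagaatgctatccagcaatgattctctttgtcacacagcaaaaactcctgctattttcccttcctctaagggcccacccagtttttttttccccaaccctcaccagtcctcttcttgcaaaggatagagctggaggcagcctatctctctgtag

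A promoter of this window was found for 17 of the 23 tested serpins. Those not found included Serpina10, Serpina3h, Serpina9, Serpinb1a and Serping1. AP-1 elements, the sites of Fos and Jun proteins, were in 7 of the 17, and in 7.93% of the 27025 promoters of the table. All 6 tested genes of chromosome 1 held at least 1, between positions -181 (Serpinb11) and 14 (Serpinb8) from the annotated start site used. The other promoter with a match was that of Serpina1b. In the whole chromosome 1 cluster, tested or not, 7 of 11 promoters held an AP-1 element, against 0 of 14 in the chromosome 13 cluster and 4 of 18 in the chromosome 12 cluster. The TATA box was as frequent in the chromosome 1 cluster, in 7 of 11 promoters, and was in 1 of 14 and 4 of 18 in the others. The TEAD element was in 4 of the 17 serpin promoters (14.6% of all), the TCF/LEF element in 2 (16.2%), the TATA box in 3 (14.2%) and the GAS element in 2 (8.47%). Genes of a cluster share ancestry and so are not independent, the motifs were chosen with the expression results known, and a match is a string of letters and not a bound site.

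**Figure D1:**
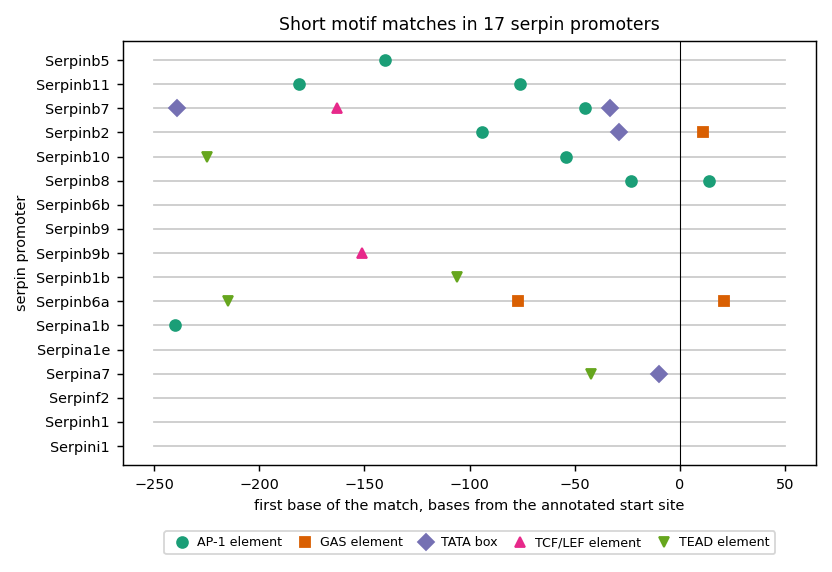
Position of the first base of each motif match (x axis, bases from the annotated start site) in the promoters of 17 tested serpins (y axis), with 1 symbol per motif. The 6 chromosome 1 genes at the top carry AP-1 matches between positions -181 and 14, and the chromosome 13 genes below them carry none.

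Organoids expressed serpins, but nearly all of the transcripts came from 2 genes of the chromosome 13 cluster. Serpinb1a (an inhibitor of neutrophil proteases inside cells) and Serpinb6a (an inhibitor of trypsin-like proteases and cathepsin G) made up between 97.2% and 98.1% of the summed serpin TPM in every organoid library. In tumoroids they made up 58.5%, 40.9% and 30.0% in replicates 1, 2 and 3. The summed TPM of all serpins was 815 to 1021 in the 6 organoid libraries and 951, 1508 and 1805 in tumoroids 1, 2 and 3, so the groups overlapped in this sum. Without Serpinb1a and Serpinb6a the sum was 15.9 to 26.9 TPM in organoids and 395, 891 and 1264 TPM in the tumoroids, with no overlap. The 2 genes left out of this sum were the most abundant serpins of organoids. At least 1 TPM was reached by 5 to 7 serpins in each organoid library and by 16 or 17 in each tumoroid library. A gain of this kind was not particular to serpins. Of the 16208 genes tested, 2449 (16 of the 23 serpins) were below 1 TPM in every organoid library and reached it in a tumoroid.

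**Figure D2:**
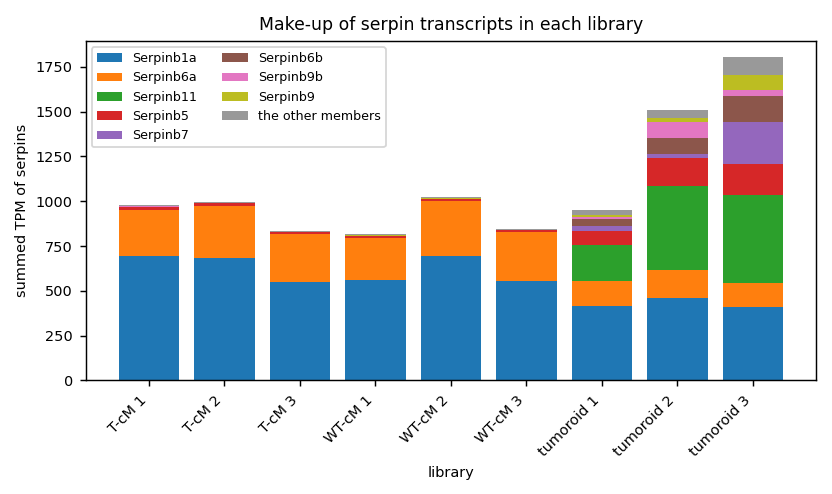
Summed deposited TPM of serpins (y axis, from 0) in each of the 9 libraries (x axis), stacked by gene. The 6 organoid bars consist of Serpinb1a and Serpinb6a for at least 97.2%, and the 3 tumoroid bars for 58.5%, 40.9% and 30.0%.

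To ask how tumoroids differ from organoids, tumoroids were compared with the mean of both organoid groups, a contrast that does not depend on which label of the media is right. Calls needed more than a 2-fold difference on top of an adjusted p below 0.05 (edgeR's quasi-likelihood F test, Benjamini-Hochberg adjustment over all 16208 genes). Of the 23 serpins tested, 16 were called higher in tumoroids (69.6%, against 21% of all genes tested) and 3 lower (against 12.1%). The median log2 fold change of the 23 serpins was 4.89, against 0.16 over all genes tested, but these figures were largely set by the filter. Of the 23, 16 were below 1 TPM in every organoid library and so were tested only because of their level in tumoroids, and they held 13 of the 16 calls. Among all genes tested for the same reason, 67.6% were called higher (1655 of 2449). Of the 7 serpins that reached 1 TPM in an organoid library, 3 were called higher (Serpinb5, Serpinb9 and Serpinb9b) and 3 lower, against 12.7% and 14.3% of the 13759 such genes. In the 16 serpins called higher every tumoroid library was above every organoid library, a separation seen in 25.6% of all genes tested and favoured by the same filter. In the 3 called lower every tumoroid was below every organoid library, as in 20.2% of all genes tested. Without any 1 tumoroid library, between 19 and 21 of the 23 were called. On the TPM scale (limma, pseudocount 1) 13 were called higher and 1 lower, and of all calls 78.5% were higher in tumoroids, against 63.4% on the CPM scale.

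Against WT-cM-titled organoids alone, 16 serpins were called higher (18.2% of all genes) and 3 lower (11.6%). Against T-cM-titled organoids alone, 16 were called higher (19.4% of all genes) and 3 lower (11.8%). The serpins called were the same ones in the 3 contrasts, which share the tumoroid libraries and in part the organoid libraries. The calls against single groups were less stable. With TPM and pseudocount 1, 11 were called higher and 1 lower against WT-cM-titled organoids. Serpina10, Serpina7, Serpinb10 and Serpinb2 lost their calls against either group under the newer quasi-likelihood fit.

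**Figure D3:**
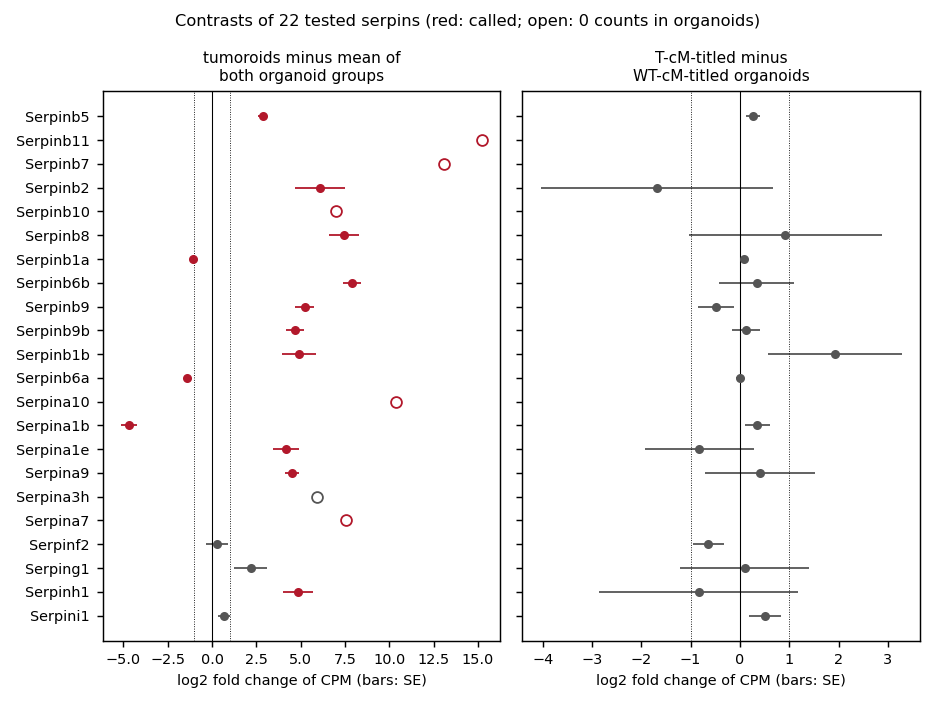
Log2 fold change of CPM (x axes) of 22 of the tested serpins (y axis) for tumoroids minus organoids (left) and for the organoid groups (right), with standard errors as bars, calls in red and dotted lines at the fold threshold. Open symbols are serpins at 0 counts in all organoids, drawn on the left without an error; 15 serpins are called to the right of 0 and 3 to the left of it in the left panel, and 0 are called in the right panel.

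In the chromosome 1 cluster all 6 tested genes rose in tumoroids, of which all but Serpinb5 were among those tested only because of their level in tumoroids (67.6% of such genes were called higher). Serpinb11, a clade b serpin with no well established target protease, was at 0 counts in all 6 organoid libraries. It had 2916, 7373 and 8777 counts, or 198, 468 and 494 TPM, in tumoroids 1, 2 and 3. With 387 ± 164 TPM (SD, n = 3) its mean was the second highest among the serpins of tumoroids, below that of Serpinb1a, and it was above Serpinb1a in tumoroids 2 and 3. Against a floor of 3 counts over the 6 organoid libraries, its mean CPM (counts scaled to the TMM-normalised library size) was at least 8539-fold higher, and the lowest tumoroid alone was at least 4783-fold higher (adjusted p = 1.3e-05, edgeR). All floors and counting intervals given here cover counting error only, since these reads carry no molecular identifiers.

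Serpinb7 (megsin), known from skin, where its loss in humans causes a keratoderma, was also at 0 counts in all organoid libraries. Tumoroids had 372, 289 and 3717 counts of it, or 28.2, 20.5 and 234 TPM, so that tumoroid 3 stood far above the other two. Its mean CPM was at least 1873-fold and that of the lowest tumoroid at least 389-fold above the floor (adjusted p = 0.00108). Without tumoroid 3 it remained called (adjusted p = 5.06e-05), with a fitted log2 fold change of 11.07 in place of 13.07.

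Serpinb5 (maspin) was the only gene of this cluster with an appreciable level in organoids. Its TPM was 18.4, 15.8 and 8.70 in T-cM-titled organoids 1, 2 and 3, 10.4, 14.4 and 9.68 in WT-cM-titled organoids, and 79.3, 157 and 171 in tumoroids. The lowest tumoroid was more than 4 times the highest organoid library, and the log2 fold change of CPM was 2.87 ± 0.26 (SE; adjusted p = 2.12e-05, edgeR), or 7.29-fold.

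Serpinb8, a cytoplasmic inhibitor of furin-like proteases, had 3 counts over the 6 organoid libraries and 59, 45 and 363 in tumoroids 1, 2 and 3. The ratio of pooled CPM was 216 (exact 95% counting interval 73.6 to 1054), and tumoroid 3 was again the highest. Serpinb2 (plasminogen activator inhibitor 2) had 1 count in organoids and 4, 3 and 61 in tumoroids, a ratio of 94.6 (16.4 to 3790). Serpinb10, which the annotation lists as a polymorphic pseudogene, was at 0 in organoids and had 16, 2 and 44 counts in tumoroids. The latter pair overlap on the same strand and share 7.52% and 5.10% of their stretches of 100 bases, so some of their reads may have been counted on the wrong gene. All 3 were called, with adjusted p of 9.08e-05, 0.00787 and 0.00936, and remained called without tumoroid 3, at log2 fold changes of 6.04, 3.62 and 5.95 in place of 7.44, 6.10 and 7.01. Without replicate 3 of both organoid groups, Serpinb8 was at 8.15 and Serpinb2 at 7.08. On the TPM scale with pseudocount 1, Serpinb2 (adjusted p = 0.0678) and Serpinb10 (log2 fold change 0.74) were not called. Fitted values for genes with so few counts in organoids depend on the prior count of the fit. Serpinb12, Serpinb13 and Serpinb3c, the other members of this cluster, had 1 to 8 counts over all 9 libraries.

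The chromosome 13 cluster was split. Its 2 abundant genes fell while 4 others rose. Serpinb1a was at 694, 685 and 550 TPM in T-cM-titled organoids, 559, 693 and 557 TPM in WT-cM-titled organoids and 413, 460 and 409 TPM in tumoroids. Serpinb6a was at 258, 289 and 270 TPM in T-cM-titled organoids, 238, 306 and 270 TPM in WT-cM-titled organoids and 144, 158 and 133 TPM in tumoroids. Every tumoroid was below every organoid library for each of them, on either scale. The log2 fold changes of CPM were -1.07 ± 0.15 for Serpinb1a (adjusted p = 0.00026) and -1.44 ± 0.16 for Serpinb6a (adjusted p = 6.91e-05). On the TPM scale (limma, pseudocount 1) the median of all genes moved up by 0.35 and the changes were -0.54 and -0.90, which kept an adjusted p of 0.00712 and 0.000199 but passed the fold threshold no more. Serpinb1a also missed it with upper-quartile factors (-0.96) and without replicate 2 of both organoid groups (-0.98). Serpinb6a overlaps Nqo2 and Ripk1 on the opposite strand, and the strand setting of the counting is not given in the sources used here.

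Serpinb6b, a paralogue of Serpinb6a, had 1 to 8 counts in each organoid library and 583, 1457 and 2607 in tumoroids 1, 2 and 3. This was 0.258 ± 0.174 TPM in organoids (SD, n = 6 libraries paired by number) against 92.3 ± 53.2 TPM in tumoroids (n = 3), and the log2 fold change of CPM was 7.90 ± 0.53 (adjusted p = 4.33e-06), or 239-fold. Within this pair of paralogues Serpinb6a was therefore the more abundant in every organoid library and in tumoroids 1 and 2, while Serpinb6b, at 146 TPM, was above Serpinb6a in tumoroid 3.

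Serpinb9 inhibits granzyme B, a serine protease of cytotoxic lymphocytes, and Serpinb9b is a close paralogue described as an inhibitor of granzyme M. Serpinb9 was at 0.42 to 1.00 TPM in organoids and at 11.04, 21.88 and 84.17 TPM in tumoroids 1, 2 and 3, a log2 fold change of CPM of 5.23 ± 0.55 (adjusted p = 4.82e-05). Without tumoroid 3 this was 3.98. Serpinb9b was at 0.84 to 1.44 TPM in organoids and at 10.9, 89.0 and 35.6 TPM in tumoroids, a change of 4.67 ± 0.50 (adjusted p = 5.23e-05). Here tumoroid 2 was the highest, and the change was 3.76 without it. Granzyme B itself (Gzmb) was at 0 counts in all 9 libraries. Granzyme M (Gzmm) had 2 to 10 counts in each organoid library and 18, 23 and 25 in tumoroids, and was called higher (1.21, adjusted p = 0.0287). Gzmm was below 1 TPM in every organoid library and was tested only because of tumoroids, as were genes of which 67.6% were called higher. Both granzymes were picked from the list of protease targets to stand beside these serpins, not by their p.

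Serpinb1b, a paralogue of Serpinb1a, had 11 counts over the 6 organoid libraries, 8 of them in T-cM-titled organoid 1, and 13, 55 and 139 in tumoroids 1, 2 and 3. Its log2 fold change was 4.89 ± 0.96 (adjusted p = 0.00206). It was 3.97 without tumoroid 3, 5.72 without replicate 1 of both organoid groups and 5.98 without replicate 3 of them. Among the untested genes of the cluster, Serpinb6c had 13 counts in organoids and 1 in tumoroids, Serpinb1c had 0 and 13, and Serpinb9d, Serpinb9e, Serpinb9f and Serpinb6e had 1 count each over all libraries.

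**Figure D4:**
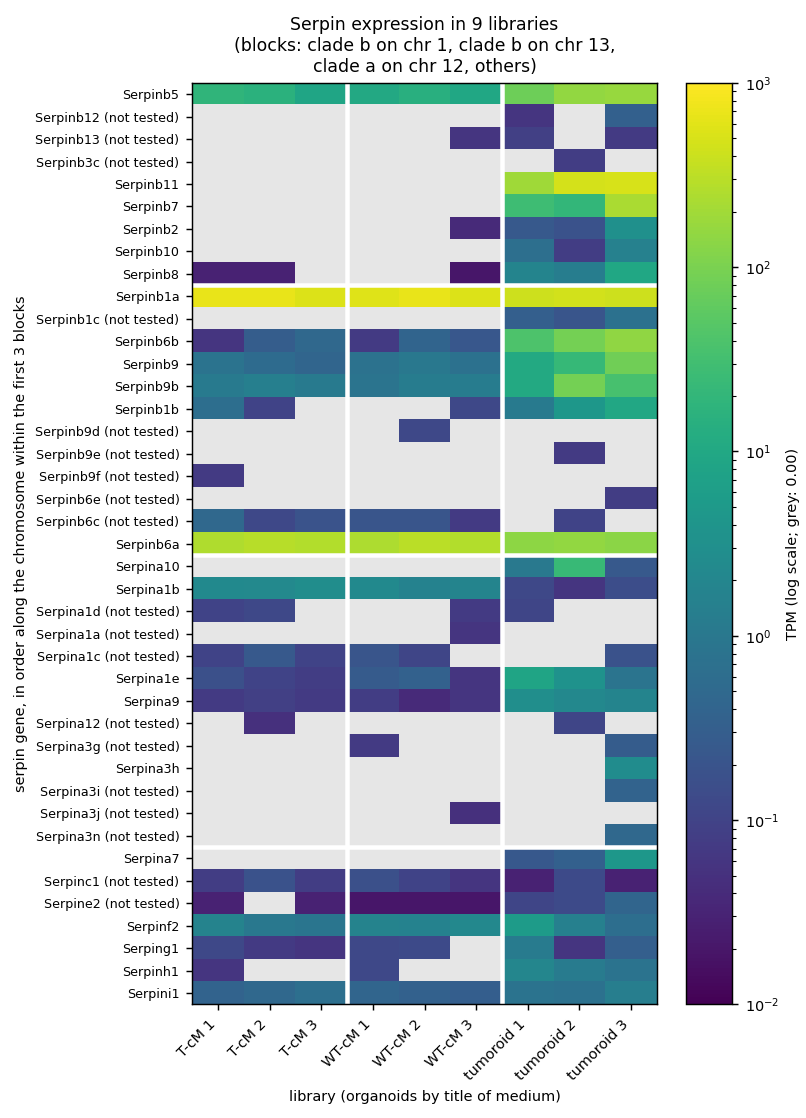
Deposited TPM (colour, log scale, grey for 0.00) of 41 of the serpins with a count (rows) in the 9 libraries (columns), with white lines between the 3 gene clusters, the other serpins and the 3 groups of libraries. Only Serpinb1a and Serpinb6a are bright across all columns, and Serpinb11, Serpinb7, Serpinb6b and Serpinb9 turn from grey or dark to bright in the tumoroid columns.

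In clade a, the alpha-1-antitrypsin genes, inhibitors of neutrophil elastase of which the mouse has several copies, moved in opposite directions. Serpina1b had 41, 33 and 51 counts in T-cM-titled organoids, 40, 27 and 43 in WT-cM-titled organoids and 2, 1 and 3 in tumoroids. Serpina1e had 1 to 4 counts in each organoid library and 90, 41 and 11 in tumoroids 1, 2 and 3. The log2 fold change of CPM was -4.71 ± 0.46 for Serpina1b (adjusted p = 3.14e-05) and 4.15 ± 0.74 for Serpina1e (adjusted p = 0.00117), the latter 3.09 without tumoroid 1. Their levels were low, at 2.21 ± 0.436 TPM in organoids (SD, n = 6 libraries paired by number) for Serpina1b and 4.21 ± 3.76 TPM in tumoroids (n = 3) for Serpina1e. Serpina1a, Serpina1c and Serpina1d had 1, 9 and 4 counts over all libraries. These 5 genes share between 14.4% and 58.5% of their stretches of 100 bases with other copies, and how such reads were counted is not stated, so which copy the counts belong to is uncertain.

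Serpina9 (centerin), known from germinal centre B cells, had 1 or 2 counts in each organoid library and 73, 57 and 55 in tumoroids, with little spread among them. It rose by 4.51 ± 0.39 on the log2 scale (adjusted p = 1.53e-05). Serpina10, the inhibitor of coagulation factor Xa that depends on protein Z, was at 0 in organoids and had 25, 600 and 7 counts in tumoroids 1, 2 and 3. Its mean CPM was at least 286-fold above the floor and that of the lowest tumoroid at least 8.70-fold (adjusted p = 0.0102). Tumoroid 2 held nearly all of it, and without tumoroid 2 the fitted log2 fold change fell from 10.36 to 6.76 and remained called (adjusted p = 0.0105).

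Serpina7 on the X chromosome, which encodes thyroxine-binding globulin, was at 0 in organoids and had 4, 6 and 88 counts in tumoroids (adjusted p = 0.0123). Without tumoroid 3 its fitted log2 fold change was 5.03 in place of 7.59, and on the TPM scale with pseudocount 1 it was not called (adjusted p = 0.0524). Serpina3h, annotated as a transcribed pseudogene, had 31 counts in tumoroid 3 and 0 in every other library, and was not called (adjusted p = 0.0763), but passed with no TPM filter (0.0292), with the replicate block (0.0304) and without tumoroid 2 (0.0476). The related Serpina3g, Serpina3i and Serpina3n had 5, 7 and 8 counts in tumoroid 3 and 0 in the other tumoroids. Serpina12 and Serpina3j had 4 and 1 counts over all libraries.

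Outside the clusters, Serpine2 (protease nexin 1) was not tested, with 8 counts over the 6 organoid libraries and 6, 8 and 28 in tumoroids.

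Serpinh1 (Hsp47) had 3 counts over the organoid libraries and 32, 21 and 16 in tumoroids 1, 2 and 3. The ratio of pooled CPM was 32.0 (exact 95% counting interval 10.5 to 159), and it was called (adjusted p = 0.00107). All 3 organoid counts lay in replicate 1 of the organoid groups, without which the fitted log2 fold change was 7.29 in place of 4.84. Its level in tumoroids remained low, at 1.31 ± 0.575 TPM (SD, n = 3). Serping1, the inhibitor of the first component of complement, had 0 to 2 counts in each organoid library and 19, 1 and 6 in tumoroids, and was not called (log2 fold change 2.18 ± 0.94, adjusted p = 0.0808). With the newer quasi-likelihood fit (adjusted p = 0.0371) or without tumoroid 2 (adjusted p = 0.0246) it passed the threshold, while without tumoroid 1 the change was 0.67 (adjusted p = 0.613). Serpinf2 (alpha-2-antiplasmin) was at 0.87 to 2.13 TPM in organoids and at 5.43, 1.49 and 0.63 TPM in tumoroids, so that tumoroid 1 lay above the organoid range, tumoroid 2 within it and tumoroid 3 below it. Its log2 fold change was 0.28 ± 0.61 (adjusted p = 0.731) and turned to -1.07 without tumoroid 1. Serpini1 (neuroserpin) was at 0.31 to 0.66 TPM in organoids and 0.72 to 1.38 TPM in tumoroids (0.66 ± 0.34, adjusted p = 0.138). Serpinc1 (antithrombin) was not tested, with 5 to 10 counts in each organoid library and 2, 8 and 2 in tumoroids.

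The serpins that rose varied widely among tumoroids. The highest tumoroid had a median of 7.78 times the CPM of the lowest for the 16 serpins called higher, against a median of 2.23 times over the 3321 genes called higher, and 1.63 times over the 14805 genes tested, that had counts in all 3 tumoroids. The sets were not matched on level, and this ratio grows at low counts, such as the 2 to 7 counts of Serpinb10, Serpinb2, Serpina7 and Serpina10 in their lowest tumoroid. Tumoroid 3 was the highest for 11 of the 16 (68.8%), tumoroid 1 for 3 and tumoroid 2 for 2. Tumoroid 3 was the highest for 56.5% of all genes called higher and for 36.8% of all genes tested with a count in tumoroids. By contrast, the largest of the 3 values was 1.10 times the smallest for Serpinb1a and 1.18 times for Serpinb6a.

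**Figure D5:**
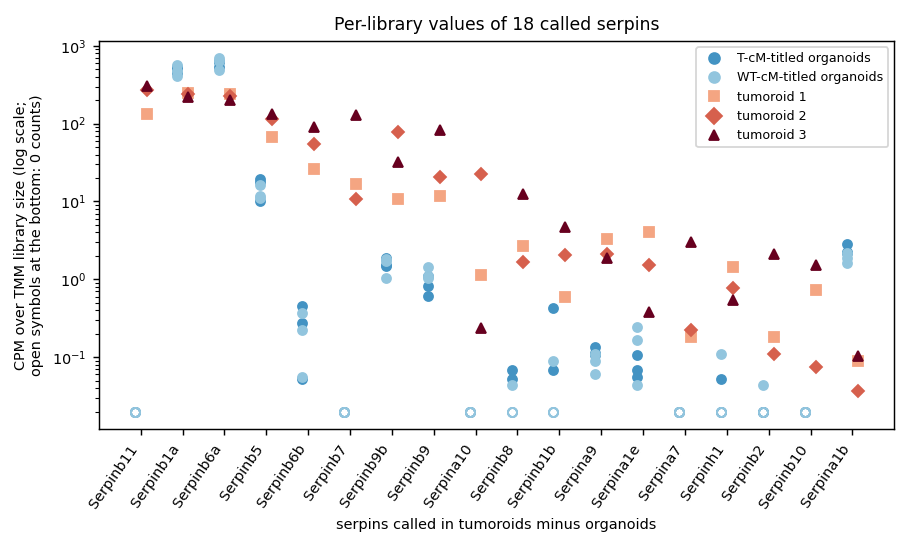
CPM over the TMM-normalised library size (y axis, log scale) of 18 of the serpins called between tumoroids and organoids (x axis, by mean level in tumoroids), with 1 symbol per library and open symbols at the bottom for 0 counts. All 3 tumoroid symbols lie above the organoid symbols for 15 serpins and below them for Serpinb1a, Serpinb6a and Serpina1b, and tumoroid 3 stands out for Serpinb7.

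Markers of other cell types were measured in the same libraries. The 7 epithelial markers summed to 8395 to 11722 TPM in organoids and 10725 to 12252 TPM in tumoroids, so that both were epithelial as labelled, with Vil1 called lower (-2.15 on the log2 scale) and Krt18 higher (1.38) in tumoroids. Among 10 markers of fibroblasts and mural cells, Col3a1 and Lum were at 0 counts in all libraries, Col1a1 and Dcn had at most 12 counts and 1 count in any library, and the sum was higher in tumoroids mostly through Acta2 (8.40, 4.31 and 94.1 TPM in tumoroids 1, 2 and 3 against 0.46 to 1.62 in organoids). The sum of 8 markers of stratified epithelium, a tissue in which Serpinb5 and Serpinb7 are known, was 0.75 to 4.31 TPM in organoids and 52.7, 154 and 537 TPM in the tumoroids. Of these 8, 7 were tested and 6 called higher in tumoroids (Krt5, Krt14, Trp63, Dsg3, Ivl and Lor), but 6 of the 7 were below 1 TPM in every organoid library and were tested only because of their level in tumoroids (21% of all genes, and 67.6% of genes tested for that reason, were called higher). Krt5, Krt14, Trp63 and Ivl were highest in tumoroid 3, as Serpinb7 was (Trp63 with 7, 3 and 1066 counts in tumoroids 1, 2 and 3), while Dsg3 (348, 1659 and 423 counts) and Lor (131, 1142 and 760) were highest in tumoroid 2. Of all genes called higher, 56.5% were highest in tumoroid 3. The sum of 7 leukocyte markers was 7.12 to 9.63 TPM in organoids and 113, 79.3 and 504 TPM in tumoroids, through Cd14, Cd68 and Csf1r, while Ptprc had at most 19 counts in any library and Cd3e 0. Only the 3 that rose were tested, and Ptprc, Cd3e, Itgam and Cd79a stayed below 1 TPM in every library. Hepatocyte markers summed to 2.78 to 6.93 TPM in organoids and 7.37, 37.0 and 21.5 TPM in tumoroids, where Alb had 22, 593 and 0 counts in tumoroids 1, 2 and 3 (tumoroid 2 was the highest for Serpina10), Cyp2e1 had 87, 28 and 377, and neither was called, with Ahsg and Fga at 0 in every library. Endothelial markers summed to 0.51 to 0.80 TPM in organoids and 0.29, 0.41 and 3.06 TPM in tumoroids, where Cdh5, at 0 in organoids, was called higher (adjusted p = 0.0358) with 1, 1 and 54 counts, while Kdr and Emcn were at 0. Pecam1 had 6 to 20 counts in each organoid library and 5 in each tumoroid. Tie1 had 0 to 7 in organoids and 0, 2 and 0 in tumoroids, and Tek 8 to 19 and 4, 7 and 53. Against either organoid group alone, 0 endothelial markers were called. Pancreatic acinar markers summed to at most 0.32 TPM. The part of these genes in the serpin results was not tested, and in such bulk libraries fewer cells of a type and less RNA per cell cannot be told apart.

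To ask whether the medium changed serpin expression in normal organoids, T-cM-titled were compared with WT-cM-titled organoids over 6 libraries in a fit that blocks on the replicate number. None of the 23 serpins was called by edgeR's quasi-likelihood test, nor by voom or DESeq2, while 1.10% of all genes tested were called. With no fold threshold the count was again 0, against 10.1% of all genes, and 0 of the 23 had an unadjusted p under 0.05, against 22.0% of all genes (3568 of 16208). DESeq2 gave an adjusted p for only 6 of the 23 and for none of the serpins at 0 counts in all organoids. A different 6 of the 23 were at 0 counts there (Serpina10, Serpina3h, Serpina7, Serpinb10, Serpinb11 and Serpinb7), and carry no information here. Serpins with only a few counts in organoids had wide standard errors, such as 1.36 for Serpinb1b and 2.02 for Serpinh1, and for them changes of several-fold could not have been seen at this depth. Serpinb9 and Serpini1, with 11 to 36 counts in each organoid library, had standard errors of 0.36 and 0.33.

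The narrowest intervals were those of the most abundant serpins. The log2 fold change of T-cM-titled minus WT-cM-titled organoids was 0.08 ± 0.08 (SE) for Serpinb1a and 0.00 ± 0.07 for Serpinb6a. Serpinb5 was at 14.3 ± 5.04 TPM in T-cM-titled and 11.5 ± 2.55 TPM in WT-cM-titled organoids (SD, n = 3 each), a change of 0.26 ± 0.14 (adjusted p = 0.289, edgeR). It was higher in the T-cM-titled library of 2 of the 3 numbered pairs. Serpina1b changed by 0.35 ± 0.25 (adjusted p = 0.454) and Serpinb9b by 0.12 ± 0.29 (adjusted p = 0.876). Serpinf2 had the smallest p of the serpins, at 1.76, 1.01 and 0.87 TPM in T-cM-titled and 1.74, 1.63 and 2.13 TPM in WT-cM-titled organoids. Its groups overlapped, with a change of -0.64 ± 0.32 (adjusted p = 0.231). Without replicate 1 it was called, at -1.06 (adjusted p = 0.0383). Of the stratified epithelial markers, Lor was called higher in T-cM-titled organoids (11, 28 and 44 against 3, 2 and 0 counts, log2 fold change 4.11, adjusted p = 3.07e-05), in libraries where Serpinb7 was at 0, but not with no replicate block or on either TPM scale. For Serpinb11 and Serpinb7, which tumoroids expressed strongly, organoids of both titles had 0 counts in all 6 libraries, which allows up to 3 counts over these libraries together.

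The proteases that serpins inhibit also differed between tumoroids and organoids. Of 39 listed targets, 23 were tested, and 14 were called higher in tumoroids and 2 lower, against 21% and 12.1% of all genes. The list and the 14 include F3 (tissue factor), which is a cofactor and not a protease. The median log2 fold change of the 23 was 2.74, against 0.16 over all genes, but 8 of the 23 were below 1 TPM in every organoid library and were tested only because of their level in tumoroids. Of these 8, all but Prss2 were called higher, and of all genes tested for that reason 67.6% were. The listed targets with the smallest p were C1s1 and C1ra, the complement proteases that Serping1 inhibits, the lysosomal protease Ctss, the elastase Cela1, the lysosomal protease Ctsl and Hgfac, which activates hepatocyte growth factor. C1s1 had 3 counts over the organoid libraries and 472, 167 and 593 in tumoroids. The log2 fold changes of the others were 4.95 for C1ra, -3.07 for Ctss, 2.74 for Cela1, 2.41 for Ctsl and 2.94 for Hgfac (adjusted p from 8.09e-06 to 3.71e-05). Among the plasminogen activators, the targets of Serpinb2, Plau had 0 to 2 counts in each organoid library and 158, 60 and 1480 in tumoroids 1, 2 and 3. It was thus highest in tumoroid 3, as Serpinb2 and 56.5% of all genes called higher were. Plat had 87 to 215 counts in organoids and 437, 5395 and 2361 in tumoroids, highest in tumoroid 2. Plau and Plat were picked from the list for this serpin after their values were seen. Plasminogen itself (Plg) had 2 counts over all libraries.

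In the organoid contrast, 2 of the 23 targets were called, both lower in T-cM-titled organoids, against 1.10% of all genes called in either direction. They were coagulation factor F10 (4, 4 and 1 against 8, 22 and 16 counts in WT-cM-titled organoids, log2 fold change -2.12, adjusted p = 0.0186) and C1ra (4, 9 and 6 against 14, 19 and 30 counts, -1.51, adjusted p = 0.0267). Neither was called without replicate 2, with no replicate block or on either TPM scale, where 0 genes were called lower in all.

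Of 16 cofactors and clearance receptors, 12 were tested, with 6 called higher and 2 lower in tumoroids (against 21% and 12.1% of all genes). Of the 6, Gpc1 and Procr were below 1 TPM in every organoid library and were tested only because of tumoroids. The heparan sulphate proteoglycan Gpc1 (6.28 on the log2 scale), the syndecans Sdc4 (1.45) and Sdc1 (1.69) and the protein C receptor Procr (5.27) rose. Lrp1 (-1.69), a receptor that takes up serpin-protease complexes, fell. Vtn (vitronectin), a plasma and matrix protein, was at 0 counts in all libraries, and the urokinase receptor Plaur was not called (0.46, adjusted p = 0.168; named after its values were seen). In the organoid contrast 0 of the 12 were called, and Plaur was higher in T-cM-titled organoids by 0.76 (adjusted p = 1.48e-05), short of the fold threshold.

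Of 21 collagens and collagen-folding genes, which Serpinh1 serves or works beside, 13 were tested, with 4 called higher in tumoroids (Col4a1, Col4a2, Crtap and Plod1) and 1 lower (P4hb), against 21% and 12.1% of all genes, but Col4a1 and Col4a2 were below 1 TPM in every organoid library and were tested only because of tumoroids. Col4a1, a chain of basement membrane collagen, had 6 to 14 counts in each organoid library and 615, 1932 and 551 in tumoroids, and Col4a2 had 4 to 25 and 492, 2070 and 389. The log2 fold changes were 6.13 and 5.63 for these chains, 2.26 for Crtap, 2.18 for Plod1 and -2.26 for P4hb. The fibrillar collagen genes Col1a1, Col1a2, Col3a1, Col5a1 and Col5a2 had at most 17 counts in any library and were not tested. Serpinh1 was highest in tumoroid 1, and Col4a1 and Col4a2 in tumoroid 2.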

How the data were processed

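The authors sequenced poly(A) RNA as stranded paired-end libraries, aligned the reads to mm10 with STAR 2.5.3a and counted them on genes of Gencode mouse release 13. They deposited raw counts per gene, with no normalisation, and TPM. The counting tool and its strand setting are not given in the sources used here. The libraries held 16541635 to 25170966 counts. Gene positions came from a later Gencode release on the same build.

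Counts over all members and lists include 1 tested serpin and 1 receptor that are not reported here by name. Members and lists were chosen with earlier results of these data known. Values in every library were given for serpins called in a contrast with a mean of at least 1 TPM in a group, the 5 most abundant serpins of each group and a set of well-known members. From each list, up to 6 called genes with the smallest p were named, and a few further genes were picked by name.

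Counts were normalised by TMM and fitted in edgeR 4.0.16 (quasi-likelihood, form used before edgeR 4) with R 4.3.3, over genes with at least 1 TPM in at least 1 library. Organoid groups were compared over 6 libraries in a fit that blocks on the replicate number, following the study's model, and tumoroids over 9 libraries without it. Deviations of same-numbered organoid libraries from their group means correlated across genes at 0.556, 0.375 and 0.553, so the numbers pair the organoids. Labels say that the 3 samples per condition came from different mice. Standard errors are the log2 fold change divided by the square root of F. Calls needed an adjusted p below 0.05 with more than a 2-fold difference. Alternatives were limma 3.58.1 (voom, and TPM with pseudocounts 1 and 0.1), DESeq2 1.42.0, other factors and filters, the block, replicates left out and groups named by the treatment field. Counting intervals and figures were made in Python 3.11.15.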

Additional observations from a re-analysis of the deposited data

How the results depend on the processing

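Between tumoroids and the mean of both organoid groups, 19 serpins were called. Over the alternatives the count ran from 14 (TPM with pseudocount 1, and edgeR's filter by expression, which tested fewer serpins) to 22 (no TPM filter, which tested all 42). With the replicate block it was 20, although tumoroid numbers do not pair with organoid numbers, and without single replicates it was 18 to 21. Against single organoid groups it was 19, and 12 with TPM and pseudocount 1 against WT-cM-titled organoids. Without single replicates it was 13 to 19 against either group. Serpina10, Serpina7, Serpinb10 and Serpinb2, all lowly expressed or carried by 1 tumoroid, lost their calls there whenever an organoid replicate was left out, and also with all libraries under the newer quasi-likelihood fit (adjusted p from 0.0525 to 0.0926), while their log2 fold changes stayed large (such as 10.37 to 10.46 for Serpina10). Serpinb1b lost its call against T-cM-titled organoids without organoid replicate 2 or 3 or tumoroid 3 (2.90 to 3.50), and Serpina1e against WT-cM-titled organoids without organoid replicate 3 (3.25). Of all genes 5363 were called, and 8165 with no fold threshold.

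In the organoid contrast 0 serpins were called, and 0 or 1 without single replicates. Of all genes 179 were called, 104 by voom, 93 by DESeq2, 0 with no replicate block, 0 on either TPM scale, 1634 with no fold threshold and 1 to 385 without single replicates. Naming the groups by the treatment field turns every organoid change round by construction (Serpinb1a -0.082, Serpinb5 -0.26, Serpinb6a 0.0001, Serpinb9 0.49, Serpinb9b -0.12, Serpina1b -0.35, Serpinf2 0.64 and Serpini1 -0.51). Changes near 0 also crossed it without single replicates (Serpinb1a -0.055 to 0.15, Serpinb5 -0.039 to 0.48, Serpinb9b -0.048 to 0.32, Serpinb6a -0.078 to 0.044), and Serpinb6a was 0.0014 with the filter by expression and 0.0105 on both TPM scales.

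Serpinf2 had no stable direction in tumoroids. Against the mean of organoids it was -0.36 by voom, -0.087 with the replicate block and -1.07 to 0.73 without single replicates. Against WT-cM-titled organoids it was 0.10 with upper-quartile factors, 0.070 on TPM with pseudocount 1, 0.60 by the treatment field and -1.39 to 0.41 without single replicates. Against T-cM-titled organoids it was -0.027 by voom, -0.04 by the treatment field and -0.75 to 1.05 without single replicates. The cause was not tested. Depth limits serpins under about 10 counts per group, whose fitted changes depend on the prior count.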

Other observations

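Inhibitors of other families changed in both directions in tumoroids. Of 36 listed genes, 35 were in the table and 16 tested, with 4 called higher and 3 lower than in the mean of both organoid groups (edgeR's quasi-likelihood test; 21% and 12.1% of all genes), and a median log2 fold change of 0.13. Of the 4 called higher than the mean of both groups, all but Tfpi were below 1 TPM in every organoid library and were tested only because of tumoroids. Wfdc2, an epithelial whey acidic protein, had 1 to 9 counts in each organoid library and 541, 337 and 4693 in tumoroids 1, 2 and 3. Slpi, an inhibitor of neutrophil elastase, was at 0 in organoids and had 19, 7 and 620 counts in tumoroids, and Csta1, a cystatin, was at 0 in organoids and had 2, 2 and 62. These 3 were highest in tumoroid 3, as Serpinb7 and 56.5% of all genes called higher were. The fourth, Tfpi, an inhibitor of the tissue factor pathway, had 37 to 68 counts in each organoid library and 260, 489 and 19 in tumoroids, and so was lowest in tumoroid 3.

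Cst6 (-4.24 on the log2 scale), Spink1 (-3.50) and Tfpi2 (-2.99), which inhibit cysteine proteases, trypsin and plasmin, fell. Spink1 had 996 to 3370 counts in organoids and 51, 601 and 53 in tumoroids. In the organoid contrast 0 of the 16 were called by edgeR, against 1.10% of all genes tested.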
